A study of Homo sapiens with 2 samples.

Results

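The circadian clock genes examined here are 10 genes of the transcriptional clock: CLOCK, ARNTL, PER1, PER2, PER3, CRY1, CRY2, NR1D1, NR1D2 and DBP. They were taken by name, and all 10 were among the 26370 gene names of both deposited files. RNA was sequenced from 2 cultures of CHME3, an immortalised human line that the labels call microglia, at passages 4 to 6. The first culture was left untreated and the other received muscarinic receptor antagonists at 5 µg/ml, called the EC50 in the labels, and each gave 1 library. The labels name neither the compound, nor the length of exposure, nor the time of day at which either culture was harvested, and no synchronising step is given. With 1 library per condition, no difference below has a replicate check and no p-value is given. Every interval is a 95% counting interval, which covers counting error only and compares these libraries, not the conditions.

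Of 20 microglia markers, 3, among them CD68 and CD14, averaged 1 FPKM or more over the libraries (FPKM is fragments per kilobase of transcript and per unit of depth). A further 11, among them AIF1, TMEM119, CX3CR1 and PTPRC, were at 0 in both files. Of 14 fibroblast and mesenchymal markers 10 reached that level. The summed microglia markers stood at 79.8 FPKM in untreated and 71.5 in treated cells, against 5908 and 6420 for the mesenchymal list. Of the other lists, 1 of 6 neuron, 1 of 6 astrocyte, 0 of 5 oligodendrocyte, 2 of 4 epithelial and 0 of 4 endothelial markers reached 1 FPKM. The part of any shift between cell states in the values below was not tested. Estimated depths were 6814381 (untreated) and 7300465 (treated) fragments. In such bulk RNA, fewer cells that express a gene and less RNA per cell cannot be told apart.

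As background, the clock is a feedback loop of transcription that runs within single cells. CLOCK and ARNTL (also called BMAL1) pair on E-box sequences and switch on the PER and CRY genes, whose proteins return to the nucleus and inhibit the pair. In a second loop the REV-ERB receptors, encoded by NR1D1 and NR1D2, repress ARNTL and other genes through response elements that they share with the activating ROR receptors. DBP is a PAR bZIP factor driven by the same E-boxes, and acts on D-box sequences in other clock genes. In a culture that has not been synchronised the cells are at different phases, so that bulk RNA averages over the cycle.

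All 10 clock genes averaged 1 FPKM or more, and their differences between the libraries were under 1.5-fold. None of the 10 was past 1.5-fold in either direction, measured as log2 of (treated FPKM + 1) over (untreated FPKM + 1). Of the 11668 genes that averaged 1 FPKM or more, 1.20% passed 1.5-fold on the higher and 1.03% on the lower side. For 2-fold these shares were 0.351% and 0.309%. At such shares, none of 10 is close to the background and does not set the members apart. The CRY genes and DBP were the 3 members on the higher side, and the other 7 were on the lower side. Over all 11668 genes, 5917 were on the higher and 5751 on the lower side. The members' log2 ratios ran from -0.35 for NR1D1 to 0.42 for CRY1, with a median of -0.09. Over all 11668 genes the median was 0.00, with quartiles of -0.10 and 0.11. CLOCK, PER2 and NR1D2 lay within those quartiles and the other members outside them. CRY1 alone had a treated-to-untreated FPKM ratio whose interval lay above 1, and in PER1, PER3 and NR1D1 it lay below 1. Such intervals lay above 1 in 6.44% and below 1 in 6.05% of all genes, so that 1 of 10 is close to the background on the higher side and 3 of 10 is above it on the lower side, a difference with no test.

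**Figure D1:**
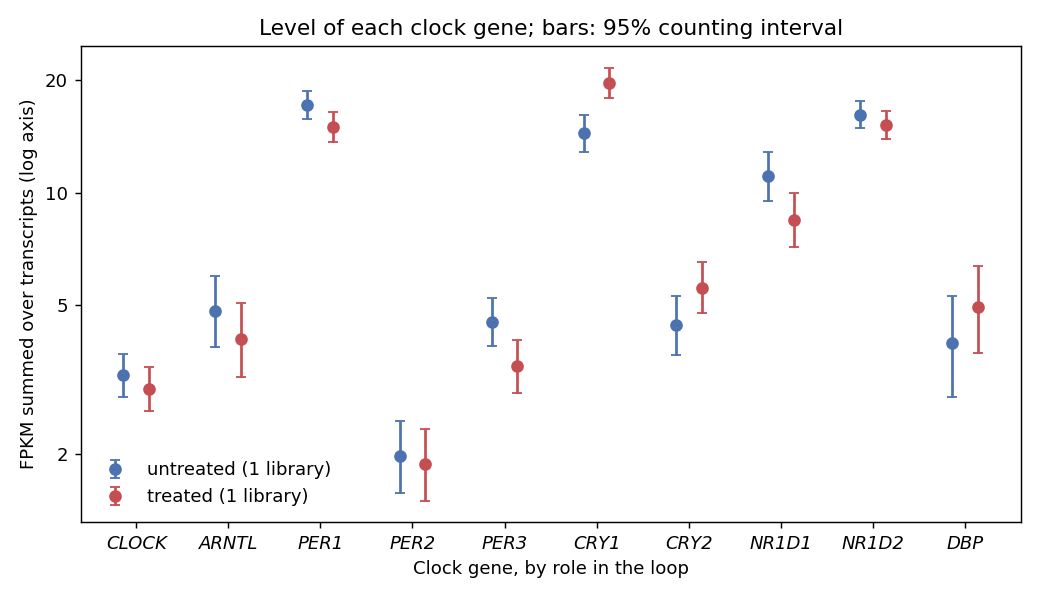
FPKM of each clock gene (log axis) in the untreated library (blue) and the treated library (red), with 95% counting intervals as bars. CRY1 is the gene whose bars lie apart, at 14.4 and 19.6 FPKM, and PER2 is the lowest in both libraries.

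The levels, which are per length and so can be compared between genes, fell into 3 tiers in untreated cells. PER1 (17.1 FPKM), NR1D2 (16.1), CRY1 (14.4) and NR1D1 (11.05) formed the top, and the interval of each overlapped that of the next. ARNTL (4.84), PER3 (4.51), CRY2 (4.42), DBP (3.98) and CLOCK (3.26) formed a middle tier whose neighbours could not be told apart by counting. PER2 stood below them at 1.97 FPKM. The overlap holds for neighbours only, since the ends of a tier lay apart. In the top tier NR1D1 (9.47 to 12.8) was clear of PER1 (15.7 to 18.6). In the middle tier CLOCK (2.85 to 3.70) was clear of ARNTL (3.88 to 5.99). In treated cells CRY1 was the highest at 19.6 FPKM, apart from NR1D2 (15.2) and PER1 (14.95), and the order of the others kept NR1D1 (8.45) between the top and CRY2 (5.58), with no overlap on either side. PER2 was again last at 1.89. Among all 11668 genes, the members' mean levels lay between percentile 9.5 (PER2) and 63.8 (CRY1), so none was among the most abundant RNAs of the line.

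CRY1, a cryptochrome and strong inhibitor of the CLOCK and ARNTL pair, had the largest difference of the 10. It is on chromosome 12, 106991365 to 107093857, on hg38, as are all coordinates of genes here. CRY1 was at 14.4 FPKM in untreated cells (301 fragments) and 19.6 in treated cells (439 fragments). The ratio was 1.37 (interval 1.18 to 1.59), a log2 ratio of 0.42. The authors' own bounds, 12.7 to 16.0 and 17.8 to 21.5, did not overlap. CRY1 was the single case among the 5 members with 1 transcript, and of 4991 such genes at 1 FPKM or more the bounds lay apart with a higher value in 1.74% and a lower value in 1.52%. As a description of these libraries, of 4508 genes with between 0.5 and 2 times its fragments, 13 (0.288%) were at least as far on the higher side.

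CRY2, its paralogue on chromosome 11 (45847118 to 45883248), was at 4.42 and 5.58 FPKM in untreated and treated cells, from 121 and 164 fragments. Its ratio of 1.26 had an interval of 0.991 to 1.61, which includes 1. The genes lay on the same side, and the CRY1 share of their summed FPKM was 76.5% in untreated and 77.9% in treated cells. The CRY sum was 18.8 and 25.2 FPKM.

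The PER genes, whose proteins carry the cryptochromes into the nucleus, were all on the lower side. PER1 (chromosome 17, 8140470 to 8152435), which is also an immediate early gene in many cells, was at 17.1 FPKM in untreated and 14.95 in treated cells, from 518 and 488 fragments. Its ratio was 0.873 (0.771 to 0.992), with an interval that ends just short of 1, and the authors' bounds (15.6 to 18.6 and 13.6 to 16.3) overlap. PER2 (chromosome 2, 238244038 to 238288566) was at 1.97 and 1.89 FPKM (82 and 84 fragments), with a ratio of 0.956 and an interval of 0.696 to 1.31. A difference of that size was not detectable at this depth. PER3 (chromosome 1, 7784429 to 7845180), a period gene not needed for the rhythm itself in mice, was at 4.51 and 3.44 FPKM (188 and 154 fragments). Its ratio was 0.762 (0.611 to 0.947), but the log2 ratio of the transcript with the highest mean was 0.04, on the other side. PER1 gave 72.5% of the summed PER FPKM in untreated and 73.7% in treated cells. The PER sum was 23.6 and 20.3 FPKM. The ratio of CRY1 to PER1 was 0.840 in untreated and 1.31 in treated cells, with CRY1 higher and PER1 lower in the treated library.

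NR1D1, which encodes REV-ERB alpha, a heme-binding repressor, had the lowest log2 ratio of the members. It was at 11.05 FPKM in untreated and 8.45 in treated cells (176 and 147 fragments), with a ratio of 0.765 and an interval of 0.612 to 0.960. The authors' bounds, 9.38 to 12.7 and 7.05 to 9.84, overlap. Of 4530 genes with 0.5 to 2 times its fragments, 1.96% were at least as far on the lower side. NR1D1 (chromosome 17, 40092784 to 40100725) lies on the strand opposite to THRA, which encodes a thyroid hormone receptor, and their exons share the 263 bases from 40093020 to 40093282, 9.48% of the NR1D1 transcript. The labels do not say whether strand was kept, so reads from these bases cannot be told apart. THRA was at 12.4 and 12.3 FPKM, which gives a ratio of 0.993 and an interval of 0.811 to 1.22.

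NR1D2, which encodes REV-ERB beta (chromosome 3, 23945260 to 23980618), was at 16.1 and 15.2 FPKM from 558 fragments in each library, a ratio of 0.939 with an interval of 0.833 to 1.06. NR1D2 was therefore the more abundant REV-ERB in both, with 59.4% of the sum in untreated and 64.2% in treated cells.

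The activators were both slightly on the lower side, with intervals that include 1. CLOCK, the histone acetyltransferase partner (chromosome 4, 55427901 to 55546909), was at 3.26 and 2.99 FPKM (229 and 226 fragments), with a ratio of 0.918 and an interval of 0.763 to 1.11. ARNTL (chromosome 11, 13277727 to 13387265) was at 4.84 and 4.05 FPKM (86 and 78 fragments), with a ratio of 0.837 and an interval of 0.608 to 1.15. DBP, the output factor (chromosome 19, 48630560 to 48637550), was at 3.98 and 4.95 FPKM (43 and 57 fragments). Its ratio of 1.246 had the widest interval of the members, 0.828 to 1.90, since it had the fewest fragments. DBP thus lay on the higher side, and NR1D1 and PER1, which like DBP are known E-box targets, on the lower side.

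**Figure D2:**
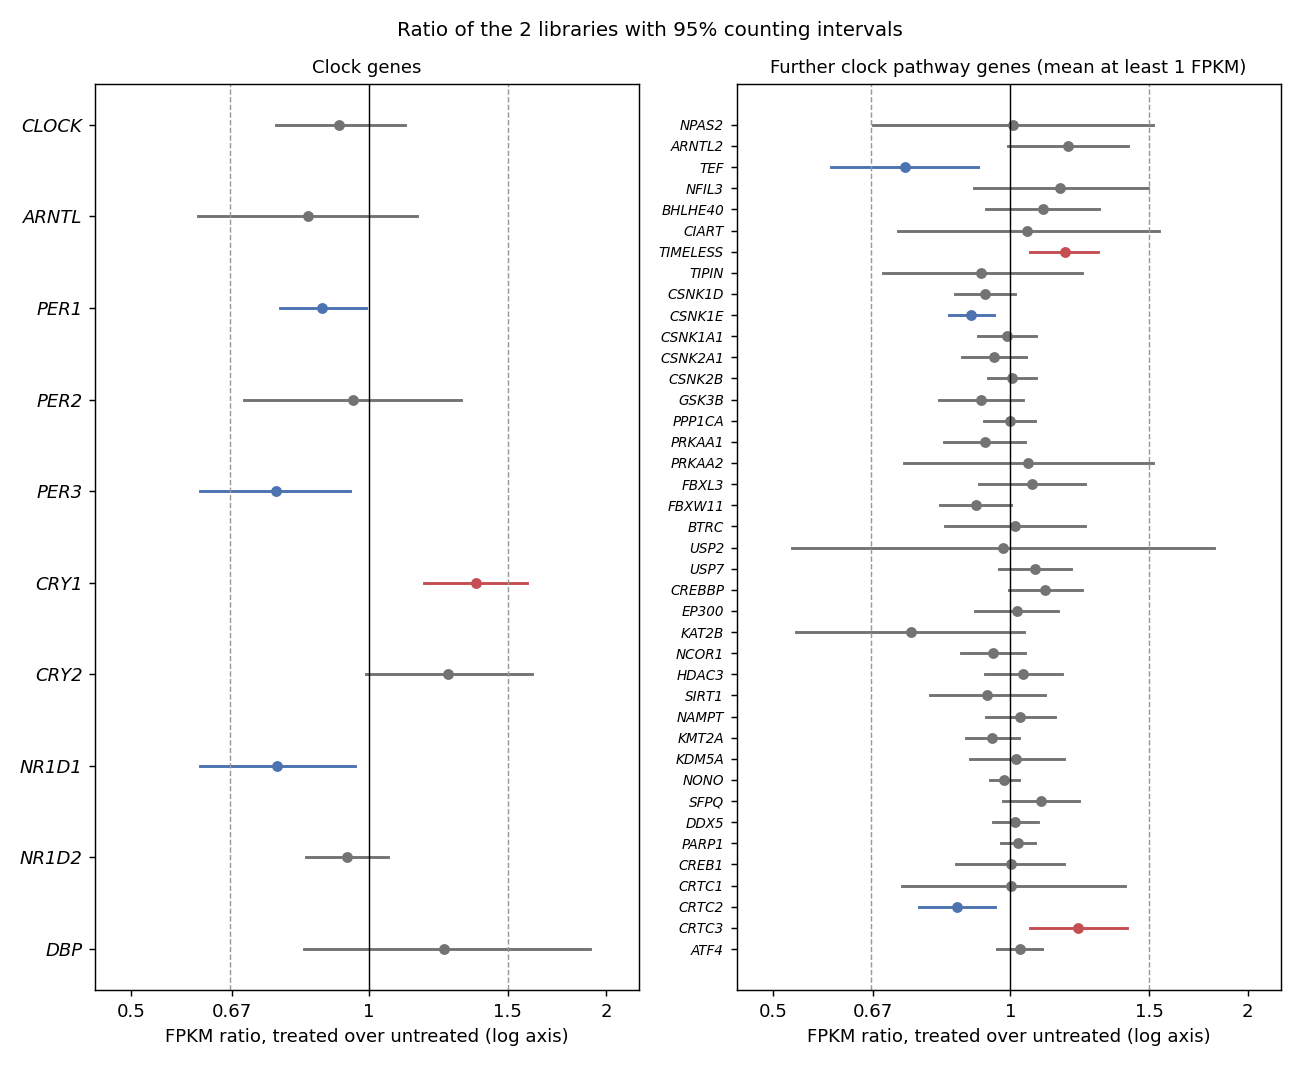
Treated over untreated FPKM ratio (log axis) with 95% counting intervals, for the 10 clock genes (left) and the 40 further clock pathway genes that averaged 1 FPKM or more (right). Red marks an interval above 1, blue below 1, grey one that includes 1, and dashed lines mark 1.5-fold. No clock gene reaches a dashed line with its point, and CRY1 is the red one at 1.37.

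Against genes with 0.5 to 2 times their fragments, the members ranged from the middle to the edge, and no cut between them is drawn. The share of such genes at least as far on the same side was 38.5% for PER2, 25.7% for CLOCK and 24.3% for NR1D2. It was 16.6% for DBP, 14.6% for ARNTL and 6.85% for CRY2. For PER1 and PER3 that share was 6.37% and 2.72%, and for NR1D1 and CRY1 it was the 1.96% and 0.288% given above. The genes were matched on fragments and not on FPKM. The 1 FPKM added in the log2 ratio pulls genes of low FPKM further towards 0, so these shares are not strictly like for like. PER3, for example, was at -0.39 without it and at -0.31 with it.

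**Figure D3:**
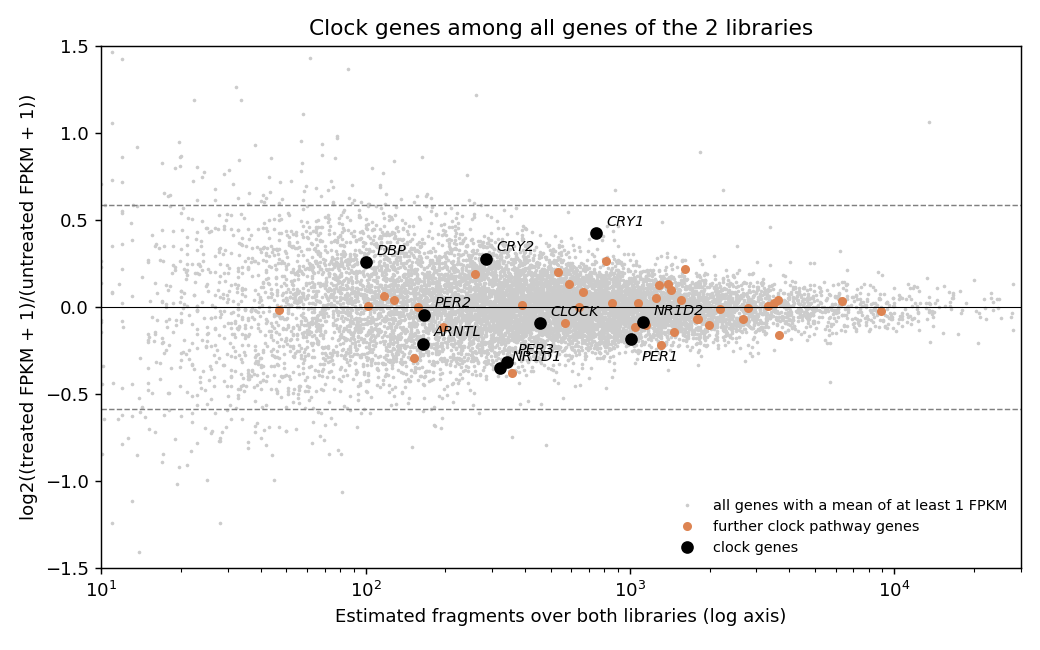
log2((treated FPKM + 1)/(untreated FPKM + 1)) against the estimated fragments over both libraries (log axis) for genes that averaged 1 FPKM or more (grey), the further clock pathway genes (orange) and the clock genes (black). Dashed lines mark 1.5-fold, and values beyond 1.5 on the log2 axis are not drawn. CRY1, at 0.42, lies at the upper edge of the genes with like fragment numbers.

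The files give FPKM by RefSeq transcript, and here 3 of the 5 members with several transcripts differed more than their sums. These values depend on how fragments that fit several transcripts were divided. Of the 8 transcripts of these members that averaged 1 FPKM or more, the authors' bounds lay apart with a higher value in 3 and a lower value in 2. Over the 11897 transcripts of all genes with 2 or more, this held for 8.90% and 8.69%.

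ARNTL had the widest shift. Its transcript NM_001030272 was at 4.84 FPKM in untreated cells (authors' bounds 3.77 to 5.92), nearly all of the gene, and at 0.624 (0.142 to 1.11) in treated cells. NM_001297722 was at 0.000113 FPKM in untreated cells and 2.17 (1.38 to 2.96) in treated cells. These transcripts differ by the 3 bases at 13372163 to 13372165, where an exon starts either before or after them, so that the split rests on reads across that single junction. NM_001030273, with an exon of 71 more bases at 13355226 to 13355296, was at 0.000325 and 1.254 FPKM. The sum changed by much less, from 4.84 to 4.05. The junction is shown from GENCODE version 29 transcripts on GRCh38, with the end of the exon before (to 13369767) and the start of the exon after, in coding direction. Capitals mark the bases present in the longer form only.
longer form: caaagaaaaaagCAGatcgaaaaagct
shorter form: caaagaaaaaagatcgaaaaagct

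PER3 showed a similar division. NM_001289863 was at 1.73 FPKM (1.21 to 2.25) in untreated and 0.0343 (0 to 0.125) in treated cells, while NM_016831 was at 0.593 (0.264 to 0.922) and 1.62 (1.16 to 2.07). NM_001289862 was at 1.70 and 1.78. The transcripts that hold the 54 bases at 7829952 to 7830005 summed to 55.5% of PER3 in untreated and 99.0% in treated cells. Those with the 21 bases at 7810568 to 7810588 made up 48.5% and 51.9%, close to each other.

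NR1D2 differed at its start. NM_005126, which starts at 23945260, was at 16.1 FPKM (14.6 to 17.7) in untreated and 12.8 (11.4 to 14.1) in treated cells. NM_001145425, which starts at 23946121 in a first exon of 133 bases, was at 0.00258 (0 to 0.0627) and 2.40 (1.66 to 3.13), or 15.8% of the gene in treated cells. The remaining exons are shared, so the split rests on the first exons, and the total went from 16.1 to 15.2. In CRY2 the transcript with the other first exon, NM_001127457, was minor in both (0.272 and 0.000731 FPKM), and in CLOCK NM_004898 held 91.1% and 91.7%.

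**Figure D4:**
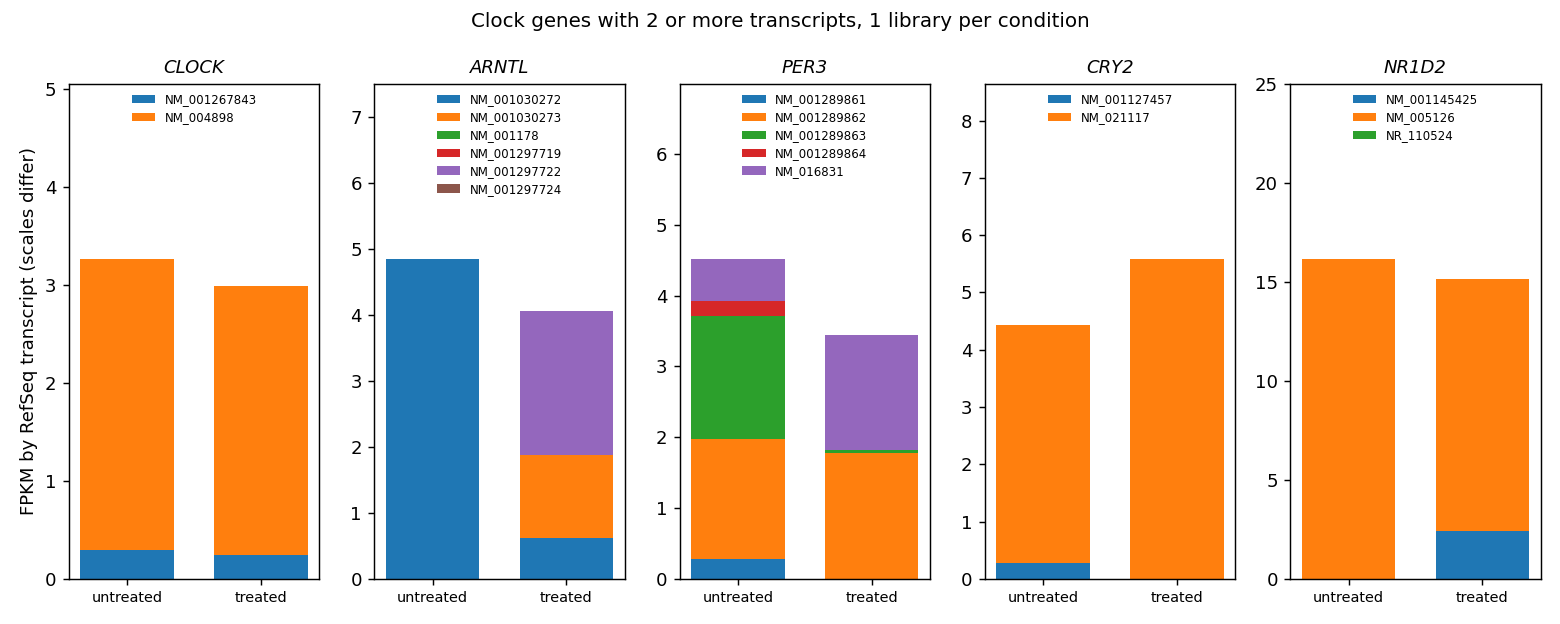
FPKM by RefSeq transcript, stacked, in the untreated and treated library for the 5 clock genes with 2 or more transcripts (each panel has its own FPKM axis, from 0). The total of ARNTL goes from 4.84 to 4.05 while its colours change almost wholly, and CLOCK keeps its colours.

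The window at the second start of NR1D2 held the most matches to the sequences through which the clock loops act. RefSeq start windows of 300 bases (250 before and 50 after a start, GRCh38.p14) were found for all 10 genes, 15 windows in all, of which 5 have a start equal to one in the files. Searched on both strands were the E-box CACGTG, the D-box TTATGTAA or TTACGTAA, and the cyclic AMP element TGACGTCA with its 5-base part TGACG. The ROR and REV-ERB response element was searched as a pattern of letters in which some positions allow several bases. Its matches read AAAGTAGGTCA in ARNTL and, with the element on the other strand, TGACCCACATT in NR1D2 and TGACCCACTTT in CLOCK. The related E-box CACGTT was added after values had been seen. Over 35116 windows of the same length, 7.26% held CACGTG, 1.01% a D-box, 0.316% the ROR and REV-ERB element, 1.85% TGACGTCA, 24.6% TGACG and 5.34% CACGTT. A match is a description of letters, not of a bound site.

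The window before the second start of NR1D2 held CACGTG at -155 and -105, a D-box at -194 and a ROR and REV-ERB element at -133. These matches belong to the start of NM_001145425, the transcript at 0.00258 and 2.40 FPKM, and not to that of NM_005126, which held most of the gene. Positions are those of the first base of a match, where -1 is the base before the start and 1 is the start. PER1 held CACGTG at -173, and no other member held it. CACGTT was in PER2, CRY1, CRY2, NR1D1 and in the window of the minor CLOCK start. A D-box was also in PER2, across the start, and in PER3, at -177 from the first of its 2 starts, which is not a start of the PER3 transcripts in the files. ARNTL held the ROR and REV-ERB element at position 27, and the minor CLOCK start held 1 at -217. DBP held none of these in its window, and TGACGTCA was in none of the 15 windows. Its part TGACG was in the window of the main CLOCK start, in PER2 and CRY1, and in each window of CRY2 and NR1D2. Some of the stretches that hold matches are printed in the direction of transcription, with the matches in capitals except TGACG. They show which of these members carries which element. Those of CRY2, NR1D1, CLOCK and the first NR1D2 start are not printed. CRY1 and ARNTL are limited to 30 bases because the files place these bases inside the transcript, and PER1 ends where the transcript of the files starts.
NR1D2, second start, chr3:23945871-23946120, plus strand: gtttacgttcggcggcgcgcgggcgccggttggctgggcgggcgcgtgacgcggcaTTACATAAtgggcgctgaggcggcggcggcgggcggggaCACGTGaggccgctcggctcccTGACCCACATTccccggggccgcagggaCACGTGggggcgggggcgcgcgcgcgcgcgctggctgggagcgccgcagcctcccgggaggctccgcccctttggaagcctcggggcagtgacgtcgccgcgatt
PER1, chr17:8152436-8152654, minus strand: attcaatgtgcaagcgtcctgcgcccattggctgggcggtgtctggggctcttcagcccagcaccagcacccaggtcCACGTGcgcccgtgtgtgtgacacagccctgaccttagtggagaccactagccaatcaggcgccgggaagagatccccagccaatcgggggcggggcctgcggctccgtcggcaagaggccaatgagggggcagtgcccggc
PER2, chr2:238288606-238288860, minus strand: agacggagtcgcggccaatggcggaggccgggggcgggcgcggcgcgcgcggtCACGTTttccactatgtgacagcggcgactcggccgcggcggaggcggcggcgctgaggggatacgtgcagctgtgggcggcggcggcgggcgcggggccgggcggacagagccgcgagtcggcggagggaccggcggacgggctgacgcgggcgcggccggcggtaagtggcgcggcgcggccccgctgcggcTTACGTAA
PER3, first start, chr1:7784041-7784290, plus strand: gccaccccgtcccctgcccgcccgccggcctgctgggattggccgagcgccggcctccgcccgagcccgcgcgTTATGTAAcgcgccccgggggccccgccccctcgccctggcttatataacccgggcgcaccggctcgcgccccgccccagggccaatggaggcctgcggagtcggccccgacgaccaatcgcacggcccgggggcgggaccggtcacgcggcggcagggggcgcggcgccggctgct
CRY1, chr12:107093621-107093650, minus strand: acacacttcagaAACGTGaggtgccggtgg
ARNTL, chr11:13277808-13277837, plus strand: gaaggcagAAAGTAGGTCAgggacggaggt

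A list of 46 further genes of the clock pathway was examined beside the members, and 40 averaged 1 FPKM or more. None of the 40 was past 1.5-fold. Of them 23 were on the higher and 17 on the lower side, beside 5917 and 5751 of all 11668 genes, with a median log2 ratio of 0.01. The interval of the ratio lay above 1 in 2 (TIMELESS and CRTC3) and below 1 in 3 (TEF, CSNK1E and CRTC2), beside the 6.44% and 6.05% of all genes given above.

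Paralogues of the members stood as follows. NPAS2, which can replace CLOCK, was at 1.88 and 1.90 FPKM, and ARNTL2, a paralogue of ARNTL, at 4.87 and 5.76, a ratio of 1.18 with an interval of 0.994 to 1.41. ARNTL2 was thus about level with ARNTL in untreated cells and above it in treated cells. Of the ROR receptors, RORA was at 0.234 and 0.130 FPKM (17 and 10 fragments), and RORB was listed at 0 in both. Among the bZIP factors TEF, a PAR bZIP relative of DBP, was at 6.93 and 5.10 FPKM (199 and 157 fragments), with a ratio of 0.736 and an interval of 0.593 to 0.911. DBP and TEF therefore lay on opposite sides, though the interval of DBP includes 1. HLF, the other relative, was at 0.0812 and 0.126 FPKM (3 and 5 fragments), and NFIL3, which competes with them at D-boxes, at 8.89 and 10.3, a ratio of 1.16 with an interval of 0.899 to 1.49.

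Of the other repressors, BHLHE40, which binds E-boxes, was at 16.2 and 17.8 FPKM, which gives a ratio of 1.10 and an interval of 0.931 to 1.297, and its paralogue BHLHE41 at 0.408 and 0.228 from 10 and 6 fragments. TIMELESS, which acts at replication forks and can bind cryptochromes, was at 21.5 and 25.2 FPKM, which gives a ratio of 1.17 and an interval of 1.06 to 1.29. Of 9 genes of kinases and a phosphatase that act on clock proteins or their partners, 7 were on the lower side, beside 5751 of all 11668 genes. Only CSNK1E among the 9 had an interval that excludes 1. CSNK1E, which phosphorylates PER proteins, was at 105.6 and 94.2 FPKM, which gives a ratio of 0.892 and an interval of 0.836 to 0.953, and GSK3B at 11.2 and 10.3, a ratio of 0.919 with an interval of 0.812 to 1.04. Among ubiquitin ligases and deubiquitinases, FBXW11, which targets PER proteins, was at 25.3 and 22.9 FPKM with a ratio of 0.904 (0.815 to 1.003), and USP7 at 18.7 and 20.1.

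Of 13 co-factors, none had an interval that excludes 1. KAT2B, an acetyltransferase, was at 2.72 and 2.03 FPKM, which gives a ratio of 0.748 and an interval of 0.534 to 1.04, and CREBBP at 9.30 and 10.3, a ratio of 1.11 with an interval of 0.996 to 1.23. Within the pathway from cyclic AMP and calcium to PER1, the CREB coactivators differed in side. CRTC2 was at 40.5 and 34.7 FPKM, which gives a ratio of 0.856 and an interval of 0.767 to 0.956, and CRTC3 at 10.2 and 12.4, a ratio of 1.22 with an interval of 1.06 to 1.40. The other 3 genes of this pathway (CREB1, CRTC1 and ATF4) had intervals that include 1.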

How the data were processed

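The clock genes and the lists of related genes were chosen with earlier results of these data known. The submitters' processing notes name TopHat, Cuffdiff and the build hg38, without versions. Every line names Cufflinks, per the file headers and lines, and the authors deposited FPKM for each RefSeq transcript with a lower and an upper bound. Counting options are not given in the sources used here. Both files hold 56891 transcript records. FPKM was summed over the transcripts of a gene, and genes that averaged 1 FPKM or more entered. The difference was taken as log2((treated FPKM + 1)/(untreated FPKM + 1)), a scale on which low genes show too small a ratio. For genes with 1 transcript, fragments were recovered from the bounds by squaring 2 × FPKM over the distance to the upper bound. For the others they came from FPKM, length and a depth fitted to whole values, within 0.01 fragments, of genes with 1 transcript. Of such values 21.1% of 5931 untreated and 21.3% of 5992 treated were whole, so fragments are estimates and no count test was run. For NR1D1, whose locus is shared with THRA, the bounds also carry the division of reads. Intervals are 95% exact conditional binomial (ratios) or exact Poisson (levels) on rounded fragments. The ratio intervals were tested on simulated Poisson fragment counts of the better covered genes. Such counts hold no library variation and no division of reads, so that test covers the calculation only. A value listed at 0 still has an upper limit, that of the exact Poisson interval on 0 fragments. Each sample was placed by its treatment label. Further genes are named as paralogues or overlapping genes of members, as the 2 largest log2 ratios per role, or with an interval that excludes 1. Some genes of the lists are counted but not reported by name here. Symbols and windows came from RefSeq tables of GRCh38.p14. Python 3.11.15, pandas 2.3.3, numpy 2.4.6, scipy 1.17.1 and matplotlib 3.10.9 were used.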

Additional observations from a re-analysis of the deposited data

How the results depend on the processing

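Each member's log2 ratio was recomputed under 8 alternatives (3 pseudocount settings, the most abundant transcript alone, 2 rescalings, estimated fragments scaled to depth, and transcripts of at least 300 bases). Most of these could not, or could hardly, change a sign. Pseudocounts cannot, all member transcripts are longer than 300 bases, and the rescalings shifted log2 ratios little. For the 5 members with 1 transcript, the most abundant transcript is the whole gene. The sign stayed in all 8 for each member other than PER3, which was at 0.043 with its most abundant transcript alone. Under that same setting ARNTL was at -1.85 and NR1D2 at -0.32, and 1 member (ARNTL) was then past both 1.5-fold and 2-fold on the lower side, while 1 further gene was past 1.5-fold higher (BTRC) and 1 lower (CIART). With estimated fragments scaled to depth 1 further gene, RORA, was past 1.5-fold lower. RORA averaged under 1 FPKM, so it is not among the 40 genes, and its ratio interval of 0.228 to 1.29 includes 1. Called by the counting interval in place of size, 1 member was higher and 3 were lower, and 2 further genes were higher and 3 lower. CRY1 ranged from 0.42 to 0.45 and NR1D1 from -0.39 to -0.34. The rescalings changed log2 ratios little: that of CRY1 went from 0.424 to 0.421 by the median and to 0.436 by the upper quartile. No paired analysis was possible because each condition has 1 library, and no library can be left out. At this depth PER2, ARNTL and DBP, with 43 to 86 fragments a library, can show only large differences.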
